A study of Mus musculus with 4 samples.

Results

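In the livers of C57BL/6 mice, 5605 autosomal CpG cytosines were read at least 40 times in both animals and had no row in the file of either mouse of mixed background. They were 0.608% of the 922621 autosomal cytosines with a coverage of 40 or more in both B6 mice, the deep B6 cytosines. Coverage chose these cytosines, so their coverage and their absence are described here and not tested. Most of them were of 3 kinds: 2319 were single cytosines lost around the 30th base of the read, 2003 lay on ends of long MspI fragments outside chromosome 17, and 797 lay on lost fragment ends of chromosome 17. The reverse set, deep in both Mixed mice and without a row in either B6 file, had 230 cytosines, 0.0385% of 597251.

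The 4 libraries were enhanced reduced representation bisulfite sequencing (ERRBS) of whole liver from male mice 6 to 8 weeks old on a normal diet, 2 per group. Mixed-1 and Mixed-2 had an undefined background that holds C57BL/6J and other strains, and B6-1 and B6-2 were C57BL/6. The groups were housed at different institutions, so background, housing and anything particular to the libraries of a group cannot be told apart. A file holds no cytosine below a coverage of 10, and an absent row says only that this level was not reached or that the row was left out. Autosomal coverage was summed over cytosines, so that a read counts at each of its CpGs. The sums were 59731981 and 64352143 in Mixed-1 and Mixed-2 and 97693080 and 90499699 in B6-1 and B6-2. Median coverages per cytosine were 39, 44, 56 and 54 in that order.

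MspI cuts at CCGG whether or not the inner cytosine is methylated, and reduced representation sequencing reads inwards from those cuts. A CpG far from a cut, or on a fragment that the size selection leaves out, is therefore hardly read at all. If a cut site is absent from an animal's DNA, the fragments on both of its sides join into a longer one and the reads that began there are lost together. If a single CpG is changed, its own cytosine may, depending on the change, no longer be called, and the rest of the read remains. CpG islands at promoters are mostly unmethylated in liver, and CpGs elsewhere are mostly methylated.

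The first sequences show what a whole loss looked like. They are reference fragments of the largest blocks and the longest runs of losses that overlap no annotated exon, on GRCm38.p6, with every CCGG in capitals. In B6 mice the reads started at these sites, and no Mixed mouse had a row on any of them.
Vmn2r-ps133 (chr17:23245232-23245362, + strand): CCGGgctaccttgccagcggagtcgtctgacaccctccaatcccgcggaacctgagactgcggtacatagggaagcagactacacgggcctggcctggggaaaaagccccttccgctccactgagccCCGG
Vmn2r104 (chr17:20028094-20028247, + strand): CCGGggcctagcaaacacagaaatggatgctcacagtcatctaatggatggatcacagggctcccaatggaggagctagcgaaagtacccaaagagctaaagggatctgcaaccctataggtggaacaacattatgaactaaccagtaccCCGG
Meiob (chr17:24772039-24772226, + strand): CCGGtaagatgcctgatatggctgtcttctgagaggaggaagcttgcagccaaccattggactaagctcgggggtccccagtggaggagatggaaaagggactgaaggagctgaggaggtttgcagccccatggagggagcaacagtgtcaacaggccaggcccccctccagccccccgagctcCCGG
Tbc1d5 (chr17:50737851-50737944, + strand): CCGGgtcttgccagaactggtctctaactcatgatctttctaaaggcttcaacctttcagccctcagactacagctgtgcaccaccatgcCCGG
Gm2885 (chr17:6839736-6839883, + strand): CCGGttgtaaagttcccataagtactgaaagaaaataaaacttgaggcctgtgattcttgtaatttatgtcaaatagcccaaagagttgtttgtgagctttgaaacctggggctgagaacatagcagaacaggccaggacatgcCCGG
The Vmn2r-ps133 fragment, 129 bp in an intron of that vomeronasal receptor pseudogene, held 8 of the lost cytosines, with coverages of 68 to 90 in B6-1 and 50 to 91 in B6-2. The single lost cytosine of the fragment near Vmn2r104 had coverages of 117 and 120 and methylation levels of 96.6% and 87.5%. On the fragment of 92 bp at Tbc1d5, 2 cytosines were covered 53 to 94 times in B6-1 and 55 to 72 times in B6-2. The fragments named after Meiob and Gm2885, their nearest genes, held 1 each, with B6 coverages of 99 and 61 and of 79 and 103.

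The second set shows single losses. These are the first 50 bases read from the cut at the most deeply covered examples of the kind that lie outside exons, chosen after the values were seen, and the capitals mark read bases 29 to 31.
Nat8l (chr5:33995906-33995955, + strand): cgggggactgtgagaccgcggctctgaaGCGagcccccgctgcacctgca
Kdsr (chr1:106759329-106759378, - strand): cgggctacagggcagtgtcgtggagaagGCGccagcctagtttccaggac
At Nat8l, whose enzyme makes N-acetylaspartate, the cytosine at read base 30 was read 137 times in B6-1 and 139 times in B6-2 and had no row in a Mixed file. The 4 other cytosines of that read had coverages of 73 to 74 in Mixed-1 and 96 to 98 in Mixed-2. The same held at Kdsr, which encodes an enzyme of sphingolipid synthesis: base 30 was read 117 and 122 times in B6-1 and B6-2 and had no row in a Mixed file. Base 1 there was read 134 and 127 times in Mixed-1 and Mixed-2. The losses at Nat8l and Kdsr thus lay inside reads that both Mixed libraries held.

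Of the 5605 cytosines, 5564 lay within 50 bp downstream of a reference MspI cut on their own strand, or 99.3%. Reads begin at these cuts, so this share is not particular to the losses, and that of all deep cytosines is not given here. The 5605 were spread over 5572 CpGs, with both strands absent at 33, and 50.7% were on the forward strand. A fragment end was called lost when none of the first 50 bases from its cut had a row in a Mixed file. Lost ends held 2821 of the cytosines, and 2319 others were at read bases 28 to 32 of an end that was otherwise present. A further 424 were single losses at other read bases, of which 81.8% lay on fragments of 140 bp or more. The remaining 41 were farther from a cut. Coverage was lower than at other deep cytosines, with medians of 59 in B6-1 and 53 in B6-2 against 78 and 72. The share of deep B6 cytosines without a Mixed row fell from 1.10% where the lower B6 coverage was 40 to 59 to 0.356%, 0.280% and 0.252% at 60 to 79, 80 to 99 and 100 or more. Just inside the limit, 1817 cytosines had a lower B6 coverage of 40 to 44, and just outside it 3277 without a Mixed row had 35 to 39. On the other side of the limit, 7260 deep B6 cytosines had a higher Mixed coverage of only 10 to 12. A further 8279 deep B6 cytosines were absent from Mixed-1 alone and 13595 from Mixed-2 alone.

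The losses around read base 30 went with the position in the read. At base 30, 1724 of 13167 deep B6 cytosines had no Mixed row, 13.1%, and at base 29 it was 482 of 13393, 3.60%. Over read bases 4 to 26 together it was 0.301%, and no single base there passed 0.423%. The coverage itself dipped at the same place: relative to base 1 of the same end it was 64.5% in Mixed-1 and 64.4% in Mixed-2 at base 30. In both B6 mice it was 97.98% at base 30. Between bases 4 and 26 the lowest value of any mouse was 95.4%. Both Mixed libraries thus stood apart from both B6 libraries at this read position.

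The base before the cytosine went with the loss. Of the 1685 cytosines lost singly at base 30, 1671 followed a G, so that the trinucleotide was GCG, or 99.2%, against 30.6% of the other deep cytosines at that base. Among deep cytosines at base 30 with under 20% methylation in both B6 mice, 1653 of the 4360 after a G were lost, 37.9%, and 26 of the 5819 after another base, 0.447%. Methylated ones were mostly kept: above 80% in both B6 mice, 5 of 479 after a G were lost, 1.04%. For unmethylated cytosines after a G, the coverage at base 30 was 26.8% of base 1 in Mixed-1 and 25.01% in Mixed-2. It was 95.5% in B6-1 and 95.8% in B6-2. After A, C or T it was 87.2% and 85.9% in the Mixed mice and 98.9% and 98.6% in the B6 mice. The ends of the single losses at bases 28 to 32 were well read in the Mixed mice, with median base 1 coverages of 44 in Mixed-1 and 47 in Mixed-2. Read position, the base before and methylation all moved with these losses, and a changed CpG in the DNA of the Mixed mice was not tested.

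**Figure D1:**
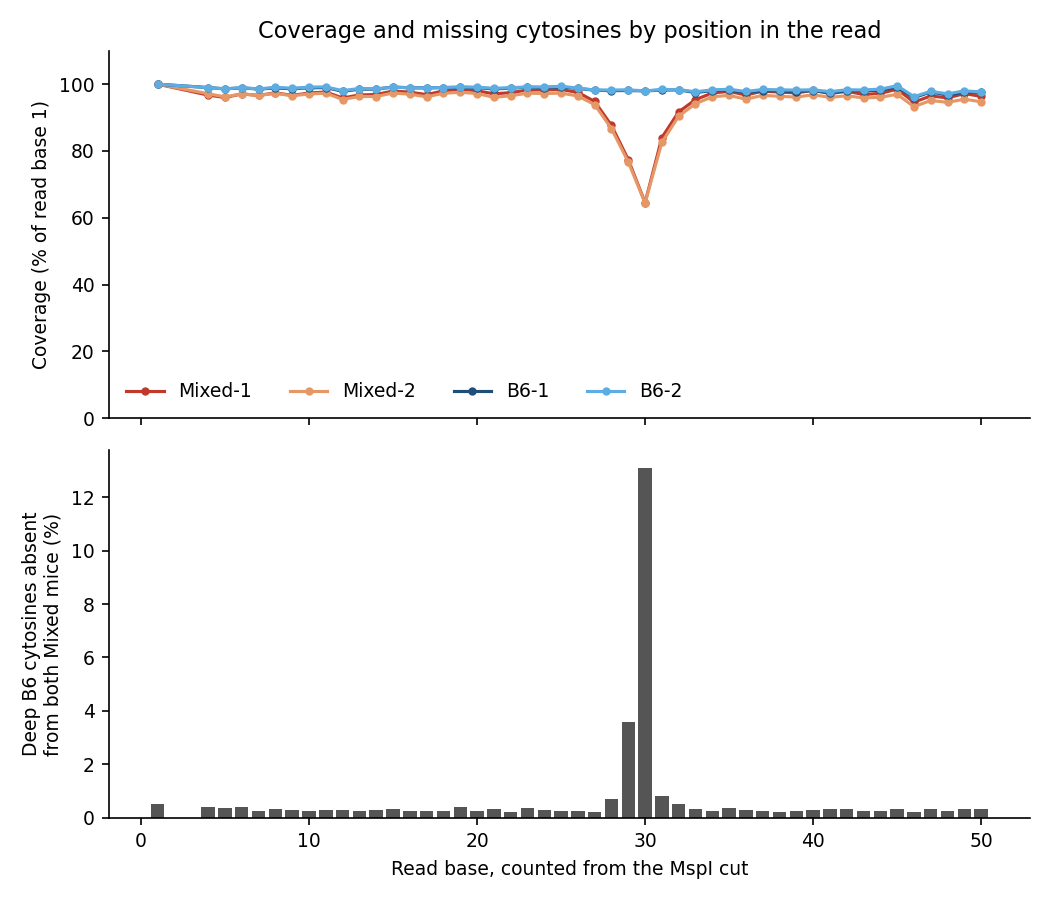
Top, coverage at each read base as a percent of that at read base 1 of the same fragment end, over ends with a base 1 coverage of 40 or more in that mouse, 1 line per mouse. Bottom, the percent of deep B6 cytosines at each read base with no row in either Mixed file; both Mixed lines fall to about 64% at base 30, where the absent share reaches 13.1%.

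Fragment length went with the lost ends outside chromosome 17. Among deep first-base cytosines of the other autosomes, 20 of 188170 on fragments under 140 bp had no Mixed row, 0.0106% (95% Wilson interval 0.00688 to 0.0164, counting error only). On fragments of 140 bp or more it was 1016 of 79068, 1.28% (1.21 to 1.37). The share rose step by step, from 0.522% at 140 to 159 bp to 1.25%, 2.02%, 3.52% and 6.07% at 160 to 179, 180 to 199, 200 to 219 and 220 to 249 bp. At 250 bp or more it was 0.625%, or 11 of 1759. Coverage by length was also taken over first bases with a row in any of the 4 files, an absent row counting as 0, so that no B6 limit entered. At 60 to 79 bp the medians were 49 and 53 in the Mixed mice and 65 and 63 in the B6 mice. At 140 to 159 bp they were 30 and 27 in the Mixed mice and 82 and 83 in the B6 mice. At 180 to 199 bp they were 12 and 10 against 41 and 37. In that bin 38.9% of these first bases had no row in Mixed-1 and 48.2% none in Mixed-2, against 2.08% in B6-1 and 5.26% in B6-2. The 2024 lost-end cytosines outside chromosome 17 had a median fragment length of 183 bp, against 95 bp for deep cytosines present in a Mixed file. Only 21 of them were on fragments under 140 bp.

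**Figure D2:**
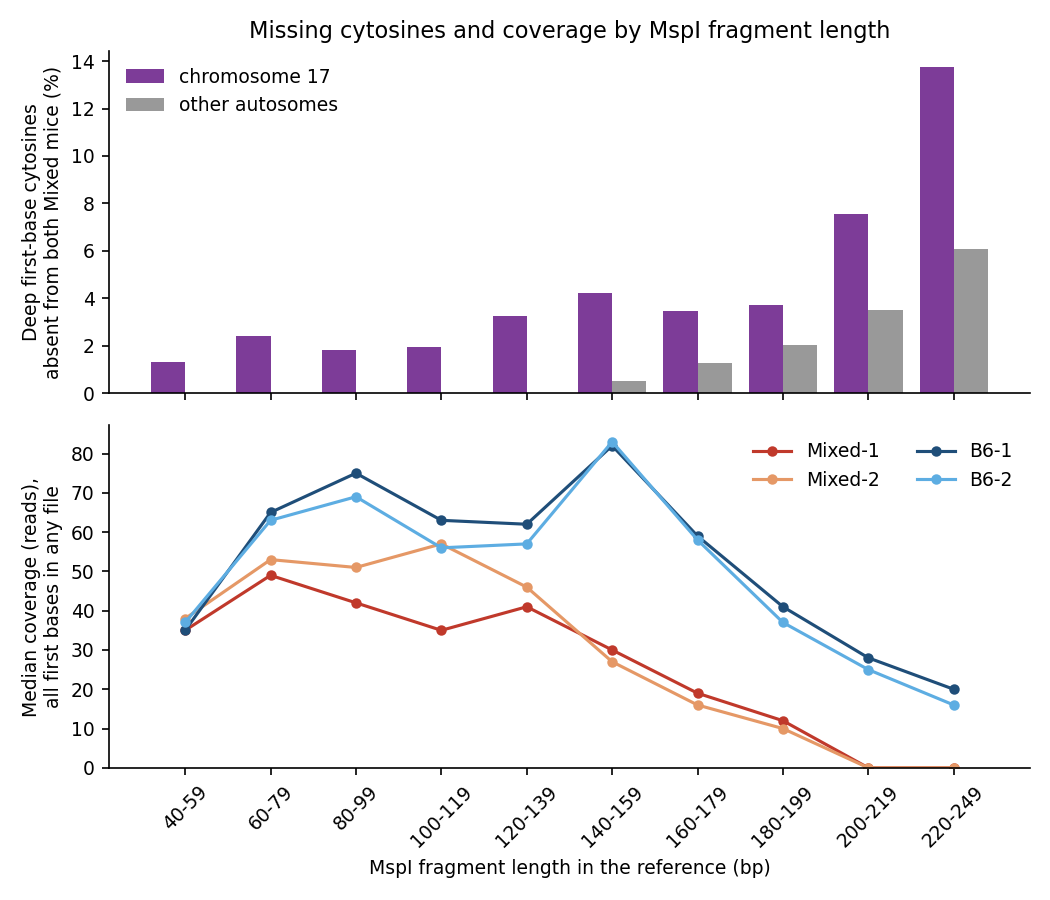
Top, the percent of deep B6 first-base cytosines with no row in either Mixed file, by length of the reference MspI fragment in bp, for chromosome 17 and for the other autosomes. Bottom, the median coverage in each mouse of first bases with a row in any file; outside chromosome 17 the share stays below 0.03% up to 139 bp and reaches 6.07% at 220 to 249 bp, while chromosome 17 is above 1% in each bin shown.

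Chromosome 17 stood apart from all other autosomes. It held 996 of the 5605 cytosines, 17.8%, with 4.81% of the deep B6 cytosines. Of its own deep cytosines 2.24% were lost, against 0.452% to 0.675% on the other 18 autosomes. Lost ends were more frequent there in both length classes. On fragments under 140 bp, 485 of 33295 deep cytosines of chromosome 17 lay on lost ends, 1.46%, and 21 of 658795 on the other autosomes together, 0.00319%, with at most 5 on any of them. On fragments of 140 bp or more, 312 were on chromosome 17, 0.703% of its deep cytosines, against 0.155% to 0.301% elsewhere. The single losses at read bases 28 to 32 took 0.257% of the deep cytosines of chromosome 17, inside the range of 0.214% to 0.303% on the others. So of the 3 kinds, only the lost ends took a share of chromosome 17 outside the range of the other autosomes.

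**Figure D3:**
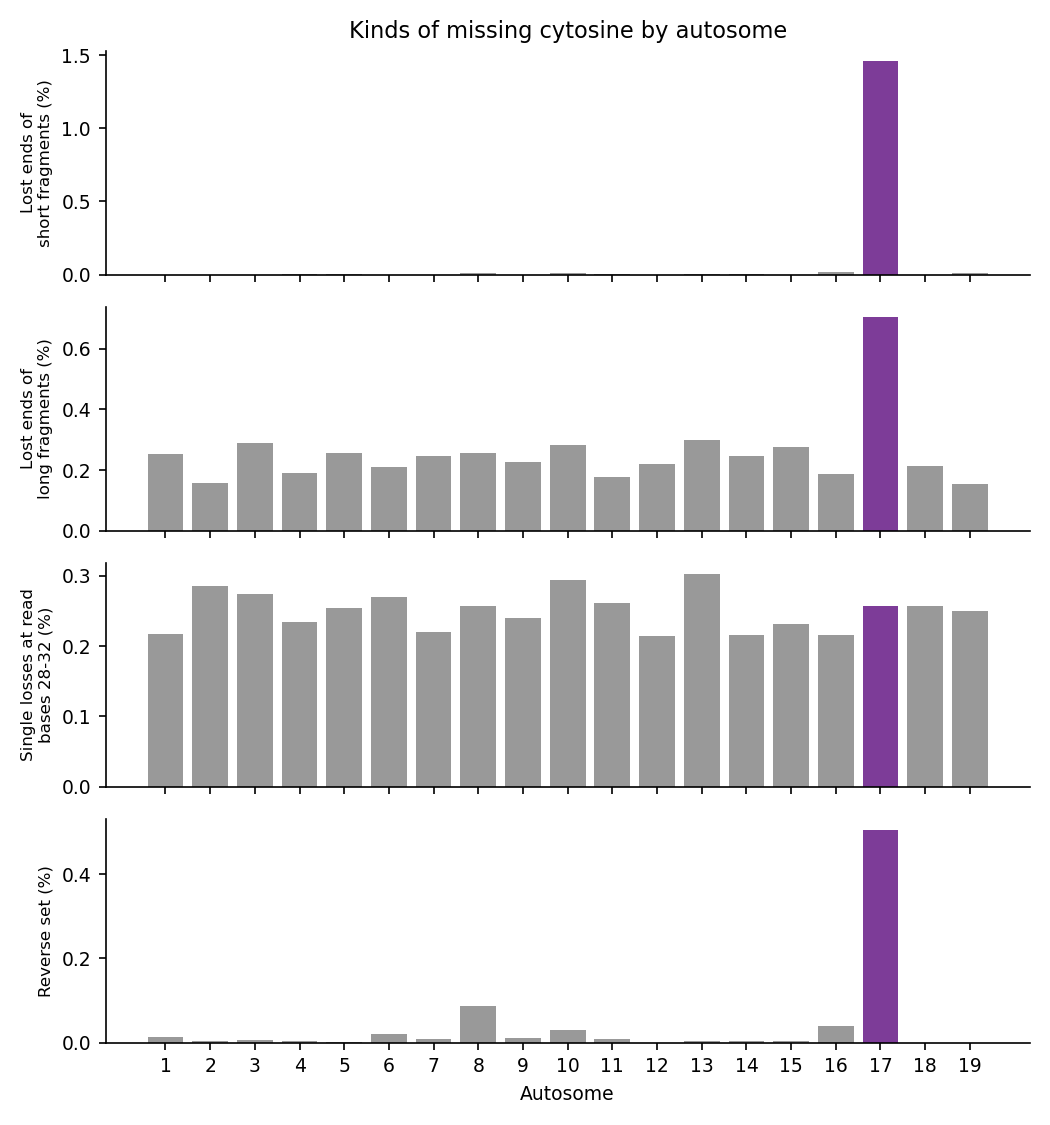
Percent of the deep B6 cytosines of each autosome on lost ends of fragments under 140 bp (of those on such fragments), on lost ends of longer fragments and lost singly at read bases 28 to 32 (of all), and, at the bottom, percent of its deep Mixed cytosines in the reverse set. Chromosome 17, in purple, is the highest bar at 1.46%, 0.703% and 0.505% in the first, second and last panel, and not at read bases 28 to 32.

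Along chromosome 17 the losses were unevenly spread. The first lost-end cytosine on a fragment under 140 bp was at 6.76 Mb and the last at 63.2 Mb. Before the first lay 931 deep short-fragment cytosines and after the last 8782, none of them on a lost end by definition. The longest gaps between such losses, from 29.4 to 35.6 Mb and from 35.6 to 40.1 Mb, held 4655 and 1562 deep short-fragment cytosines. In windows of 2 Mb the lost share was 15.7% at 18 to 20 Mb (8 of 51), 11.98% at 22 to 24 Mb (90 of 751) and 9.84% at 54 to 56 Mb (18 of 183). The largest number, 114 of 2432 or 4.69%, was at 24 to 26 Mb. The lost share was 0% in all windows from 64 Mb on. The 5 windows of 10 Mb with the highest share of lost cytosines, among 252 with 500 or more deep cytosines, were all on chromosome 17. They lay at 20 to 30, 10 to 20, 50 to 60, 0 to 10 and 40 to 50 Mb, with 4.35%, 4.13%, 3.60%, 3.50% and 1.51%. The highest elsewhere was 1.38% at 50 to 60 Mb of chromosome 7, with 0 lost-end cytosines on short fragments, and the median of the 243 windows elsewhere was 0.520%.

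Losses took both sides of a cut site or both ends of a fragment more often on chromosome 17 than elsewhere. Loss of 1 side or 1 end alone was still the more frequent there. Where both ends at a cut site were deep in B6, chromosome 17 had 11 sites with both ends lost and 34 with 1 lost, among 1578. The other autosomes had 0 with both and 134 with 1, among 29474. Where both ends of a fragment were deep, both were lost at 54 of 4716 fragments of chromosome 17 and 1 at 81, and elsewhere both at 6 of 93036 and 1 at 471. Whole fragments without any Mixed row were 200 of 9008 deep ones on chromosome 17, 2.22%, and 366 of 177543 elsewhere, 0.206%. Of the deep fragments next to a lost one, 24 of 63 were lost as well on chromosome 17, 38.1%, and 0 of 99 elsewhere. A count of 0 of 99 allows a share of up to 3.03% by counting error alone.

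The longest runs of consecutive deep B6 fragments without a Mixed row were all on chromosome 17. The longest had 5 fragments over 29784 bp around Vmn2r104, a vomeronasal receptor gene (chr17:20028095-20057878). Between these fragments 4 cytosines had a Mixed row. Its 9 lost cytosines were covered 51 to 117 times in B6-1 and 41 to 120 times in B6-2, with mean methylation of 78.04% and 75.6%. The run nearest to Meiob, a meiotic recombination gene, had 4 fragments and 15 lost cytosines over 32746 bp (chr17:24772040-24804785), with coverages of 69 to 190 and 61 to 144, and 8 cytosines in that span had a Mixed row. At Tbc1d5, the gene of a Rab GTPase activating protein, 4 fragments with 11 lost cytosines spanned 4859 bp (chr17:50733085-50737943). The run of 3 near Gm2885 (chr17:6839737-6841750) held 9. Of the 25 runs of 2 fragments, 22 were on chromosome 17, and of the 496 lost fragments standing alone, 136.

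**Figure D4:**
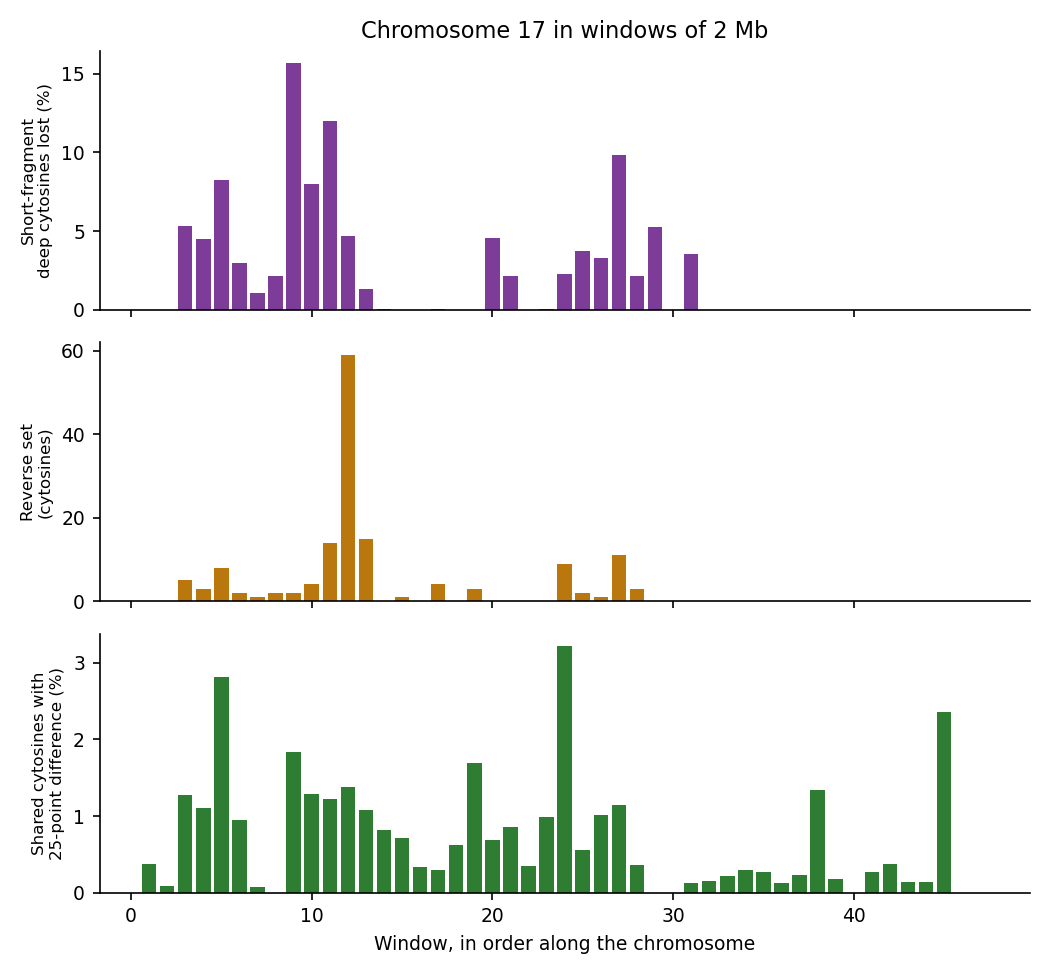
Windows of 2 Mb in order along chromosome 17. Top, percent of deep B6 cytosines on fragments under 140 bp that lay on an end lost in both Mixed mice; middle, number of reverse-set cytosines; bottom, percent of cytosines present in all 4 files whose methylation differed by 25 points or more between groups without overlap, where the tallest bars late in the chromosome rest on few cytosines.

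Taken alone, each Mixed mouse had further chromosomes with lost short fragments. With Mixed-1 alone, lost ends took 2.44% of the deep short-fragment cytosines of chromosome 1, 1.71% of chromosome 17, 1.45% of chromosome 12 and 1.42% of chromosome 9. With Mixed-2 alone the order was 2.65% on chromosome 17, 1.05% on chromosome 7 and 0.322% on chromosome 4. Chromosome 1 had 0.00240% with Mixed-2 and chromosome 7 had 0.0175% with Mixed-1, so chromosome 17 was high in each Mixed mouse and these were high in 1 only.

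Joined where they lay at most 100 bp apart, the 5605 cytosines formed 3805 blocks. Of these, 2965 held a single cytosine, 77.9%, and 2161 of those were single losses at read bases 28 to 32. Only 131 blocks had 5 or more, with 882 cytosines. Of these 131 blocks 49 were on chromosome 17, and of all 3805 blocks 450. The longest block spanned 234 bp. By number the first was at the start of the predicted gene Gm7072 (chr17:22314720-22314881), with 16 cytosines on 3 fragments of 72 to 139 bp. There the coverage was 60 to 164 in B6-1 and 89 to 124 in B6-2 and the methylation 0.119% and 0.117%. The second, with 14, was 122 bp from the start of the zinc finger gene Zfp213 (chr17:23563988-23564221), where 7 of the cytosines were single losses outside bases 28 to 32. Coverage there was 55 to 85 in B6-1 and 46 to 75 in B6-2. Also on chromosome 17 among the first 10 were Unkl, a zinc finger gene, with 11 cytosines on a fragment of 162 bp, Vmn2r-ps133 with 11 and Dpp9, a dipeptidyl peptidase gene, with 11 on a fragment of 62 bp.

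The other 5 of these 10 blocks were on other chromosomes, each in a CpG island at a promoter and on 1 fragment of at most 241 bp. Dnajb4, which encodes a co-chaperone, had 12 cytosines on a fragment of 214 bp (chr3:152210029-152210077), with coverages of 56 to 57 and 42 to 43. Galnt3, an enzyme gene of O-glycosylation, had 11 on a fragment of 187 bp (chr2:66124865-66124912), and its B6-2 coverage was 40 to 41. The predicted genes Gm6345, with 12 on 197 bp (chr1:170255611-170255661), and Gm45623, with 11 on 241 bp (chr13:56752986-56753030), were of the same kind. The B6-2 coverage of Dnajb4 and Galnt3 was thus at or near the limit of 40, and at 180 to 199 bp the median coverage of first bases was lower in both Mixed mice, as given above.

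Within 1000 bp of a transcription start site, 2645 genes had at least 1 lost cytosine, and 2063 of them had 1 only. For 2137 genes every such cytosine was a single loss at read bases 28 to 32. How many genes had a deep B6 cytosine near a start site is not given here, so the gene counts of this paragraph have no background share. A lost-end cytosine was found at 320 genes, 63 of them on chromosome 17. Unkl had the most, 20, with coverages of 50 to 140 in B6-1 and 52 to 86 in B6-2, all on lost ends. Gm6345 had 17, Gm7072 16, Zfp213 14 and Gm52286, which shares the Unkl region, 13. Safb and Safb2, a neighbouring pair of genes for scaffold attachment factors, shared 13 with methylation of 0% in both B6 mice and coverages of 57 to 104 and 40 to 122. Meiob had 12, the most deeply read of these, with 69 to 190 in B6-1 and 63 to 144 in B6-2. Dpp9 had 12 as well. The losses left most of these promoters with other data. At Safb, 101 other deep B6 cytosines were present, with a mean coverage of 60.7 in Mixed-1 and 65.4 in Mixed-2 and a mean methylation of at most 0.110% in any mouse. At Meiob there was no other.

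Methylation in B6 separated the kinds, and the mean over all 5605 hid this. It was 26.4% ± 0.00675 (SD, n = 2 mice), against 26.2% ± 0.0515 for deep cytosines with a Mixed row. The single losses at bases 28 to 32 were hypomethylated, with a mean of 2.47% ± 0.0727 and 97.5% of them under 20% in B6-1. Other deep cytosines at these bases had 18.8%. Lost-end cytosines had a mean of 50.5% ± 0.123 on chromosome 17 and 44.8% ± 0.0736 on long fragments elsewhere, against 26.4% for the other deep cytosines of chromosome 17 and 37.1% for the other deep cytosines on long fragments elsewhere. On lost short fragments of chromosome 17, 39.8% were under 20% and 38.1% above 80% in B6-1. The 2 B6 mice were close throughout, which they were also for all deep cytosines. The kinds were set from coverage and position, and the levels are given as a description.

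**Figure D5:**
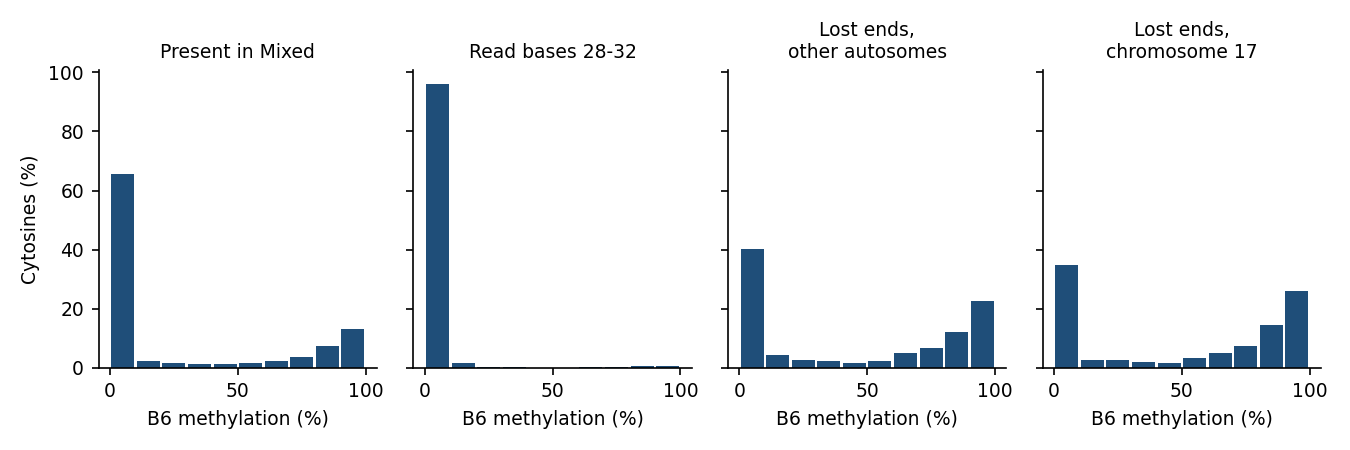
Share of cytosines, in percent, by mean methylation of the B6 mice in bins of 10 points, for deep B6 cytosines present in a Mixed file, single losses at read bases 28 to 32, lost ends outside chromosome 17 and lost ends on chromosome 17. Of the losses at bases 28 to 32, 95.9% are in the lowest bin, and both lost-end groups have a second peak at 90 to 100%.

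Gene features split along the same line. Promoters, within 1000 bp of a start site, held 59.5% of the lost cytosines and 61.4% of the other deep ones, but 87.2% of the losses at bases 28 to 32, against 69.9% of the other deep cytosines at those bases, and 34.8% of the lost-end cytosines on chromosome 17. CpG islands held 53.0% of all lost cytosines, 26.3% on lost ends and 59.8% of the other deep cytosines. At bases 28 to 32 they held 84.9% of the losses and 70.5% of the other deep cytosines. Open sea, more than 2000 bp from an island, held 68.4% of the lost-end cytosines of chromosome 17 against 32.7% of its other deep cytosines. Soft-masked repeats held 8.53% of all lost cytosines and 6.95% of the other deep ones. They held 21.4% of lost-end cytosines on short fragments of chromosome 17 and 5.44% of the other deep cytosines there. Within promoters the lost-end cytosines of the short chromosome 17 fragments were mostly unmethylated, at 6.75% in B6-1 and 6.72% in B6-2 (n = 182), and in introns they were methylated, at 75.7% and 76.4% (n = 132). An end counts as lost only if none of its cytosines had a Mixed row. The 1362 lost ends held 2821 cytosines, while the 284230 ends with a deep B6 cytosine held most of the 922621 deep cytosines. Lost ends thus held fewer deep cytosines each. At cytosines with a row in every file, methylation in B6-2 was 45.2% at read base 1 and 19.9% at read bases 20 to 25. How far the definition moves the shares and levels of lost-end cytosines was not tested.

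The reverse set was smaller, and most of it was on chromosome 17. That chromosome held 149 of the 230 cytosines, 64.8%, or 0.505% of its deep Mixed cytosines, and chromosome 8 held 31. On the other autosomes the number was at most 9, with 0 on 3 of them. The 2 Mb window at 24 to 26 Mb of chromosome 17 alone had 59. None of the 230 was a single loss at read bases 28 to 32. The 230 formed 101 blocks. Only 129 cytosines lay within 50 bp of a reference cut on their strand, 56.1%, against 99.3% of the 5605. The 95% Wilson interval of the 56.1%, 49.6 to 62.3, is counting error only and ignores the blocks. Farther from such a cut, or on a reference fragment outside the stated size fraction of 70 to 320 bp, were 205 of the 230, 89.1%, against 13.6% of the 5605. Of the other deep B6 cytosines, 75.9% were on fragments inside that fraction. Neither share is given here for the other deep Mixed cytosines. Of the 230, 25 near such a cut had a reference fragment under 40 bp and 76 had one over 320 bp. With the coverage minimum of each Mixed mouse set to the share of cytosines that 40 leaves in the B6 mouse of the same number, 30 and 33 reads, the reverse set was 432 of 802867, 0.0538%. That share was below 0.608%, but only the limit for deep cytosines was matched. The lowest coverage that gives a row stayed the same in all files. Median coverages were 39 and 44 in the Mixed mice and 56 and 54 in the B6 mice. The 5605 also include 2319 single losses at read bases 28 to 32, a kind that the reverse set lacked. These shares are therefore not a comparison at equal depth.

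Reference sequence at 2 of the 5 largest reverse blocks is given with CCGG in capitals at stretches where only the Mixed mice had a row.
Gm3365 (chr8:69584697-69584864, + strand): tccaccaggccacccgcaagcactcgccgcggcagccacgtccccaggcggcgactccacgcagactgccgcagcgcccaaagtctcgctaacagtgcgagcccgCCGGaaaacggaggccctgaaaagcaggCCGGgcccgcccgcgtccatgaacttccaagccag
Cacna1h (chr17:25437952-25438117, + strand): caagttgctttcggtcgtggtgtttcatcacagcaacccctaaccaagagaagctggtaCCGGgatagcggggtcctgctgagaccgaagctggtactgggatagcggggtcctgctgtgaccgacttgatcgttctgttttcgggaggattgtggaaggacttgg
The block of 7 cytosines near Gm3365 on chromosome 8 had, in Mixed-1 and Mixed-2, coverages of 60 to 66 and 42 to 44 and methylation of 2.42% and 1.31%, in a CpG island on a reference fragment of 1447 bp. The 6 cytosines nearest to Cacna1h, a calcium channel gene, were covered 46 to 118 and 70 to 139 times, with methylation of 95.3% and 93.7%. No B6 mouse had a row in these stretches. All 8 cytosines of the block at the start of the sialyltransferase gene St6gal2 (chr17:55445797-55445882) lay more than 50 bp from a reference cut on their strand, with coverages of 42 to 65 in Mixed-1 and 50 to 73 in Mixed-2. Reverse-set methylation was 40.2% ± 0.175 (SD, n = 2 mice), and 19.9% ± 0.0837 at the other deep Mixed cytosines.

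Methylation around the losses was compared at cytosines that all 4 mice shared. A lost end has no Mixed row by definition, so it gave no shared cytosine of its own. Within 50 bp of a lost cytosine, 26090 shared cytosines had mean levels of 1.96% and 1.95% in the Mixed mice and of 1.92% and 1.97% in the B6 mice. The group values overlapped, with a difference of 0.00960 points (two-sided exact permutation test, p = 1), and with 2 mice against 2 this test cannot give a p below 0.333. Of these, 11 were at least 25 points lower in Mixed without overlap and 6 higher, 0.0422% and 0.0230%, against 0.155% and 0.176% of all 1253673 shared autosomal cytosines. The mean level of all shared cytosines was 28.2% in B6-1, so those near the losses, at 1.92%, had little room to be 25 points lower in Mixed, and these shares cannot be set against each other. Only 310 of the shared cytosines lay near the lost ends of chromosome 17, and 1 of these was lower and 1 higher. Their means were 17.3% and 17.4% in the Mixed mice and 17.1% and 16.9% in the B6 mice. The levels of the 26090 thus say little about the surroundings of lost ends. For chromosome 17 as a whole the shares were 0.386% lower and 0.288% higher. In its 20 windows of 2 Mb with 1% or more of the short-fragment cytosines lost, 136 of 21849 shared cytosines were lower and 88 higher, 1.03% together, and in its 27 other windows 91 and 81 of 36907, 0.466%. On the other autosomes it was 0.314%. The windows were chosen by the losses, and these shares are a description.

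A second measure near the losses was reads that showed neither C nor T. No autosomal cytosine in any of the 4 files had 10% or more of such reads, the highest being 9.76% in Mixed-1 and 9.86% in B6-2, so the comparison at 20% had 0 cytosines in every mouse and was void. At 5% or more, a limit chosen after the data were seen, the shares within 50 bp of a lost cytosine were 0.0843% and 0.0460% in the Mixed mice and 0.0307% and 0.0422% in the B6 mice (two-sided exact permutation test, p = 0.333). Over all shared autosomal cytosines they were 0.0670% and 0.0536% in the Mixed mice and 0.0342% and 0.0359% in the B6 mice (exact permutation test, p = 0.333), the same direction. Near the lost ends of chromosome 17 the share was 0% in every mouse.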

How the data were processed

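ERRBS libraries of 4 mouse livers were read on GRCm38.p6, whose chromosomes match mm10. The authors digested 50 ng of DNA with MspI, selected 70 to 320 bp per the labels, sequenced 50 cycles single-end and mapped to mm10, with BSMAP in the study's methods and Bismark and SAMtools in the submitters' processing notes. The deposited coverage is a count of reads per cytosine and strand, with a minimum of 10, and the deposited freqC and freqT give, in percent, how much of that coverage was C and T. All 1606416 cytosines of autosomes and X lay on a reference CpG.

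Cytosines were placed on the fragments of an in silico MspI digest by their distance from the cut on their strand. Promoters (1000 bp on each side of a RefSeq start), exons, introns and intergenic sequence were assigned in that order, and 15611 autosomal CpG islands (200 bp, 50% GC, observed/expected 0.6) were called on masked sequence. Shares have 95% Wilson intervals and means the SD of 2 mice. The mice were compared by two-sided exact permutation tests. Read bases 28 to 32 and 140 bp were set after the profiles were seen, and the members, lists and limits were chosen with earlier results of these data known. Named were the 10 largest blocks, the 10 genes with most members at a start site, the 5 longest runs, the 5 largest reverse blocks and the 5 windows of 10 Mb with the highest share. Each library was 1 mouse. Printed stretches come from these blocks and runs, leaving out any that overlaps an annotated exon. Alternatives were the coverage minimum and ceiling, gaps, flanks, annotation, strands summed, chromosome X and each mouse left out. Scripts used Python 3.11.15, numpy 2.4.6, pandas 2.3.3, scipy 1.17.1, numba 0.67.0 and matplotlib 3.10.9 and were tested on simulated data. Results for a few of the named blocks, runs and genes are not reported here.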

Additional observations from a re-analysis of the deposited data

How the results depend on the processing

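The size of the set followed the coverage minimum. At a minimum of 20 it held 43879 cytosines and at 60 it held 1797, in 23439 and 1475 blocks. Under these minimums the B6 methylation was 45.01% and 13.5%, the promoter share 39.6% and 76.2%, the CpG island share 30.1% and 71.2% and the repeat share 9.68% and 6.90%. Of the fragments with at least 1 lost cytosine, 36.0% and 8.80% were wholly lost against 14.8%, and the lost share of deep fragments next to a lost one was 5.70% and 32% against 14.8%. The highest chromosome share was 4.83% and 1.87%, on chromosome 17 both times. The reverse set held 978 and 70 cytosines, 432 at the matched minimum, and 40% of it lay near a reference cut at 60 and 67.4% with 100 bp in place of 50 bp. A coverage ceiling gave a methylation of 26.4% and pooled reads 23.1%. Only fragments in the size fraction gave a whole share of 16.4%, promoters counted upstream only 31.5%, and islands on unmasked sequence 55.0%.

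Chosen after the data were seen, counting without read bases 28 to 32 left 3118 cytosines, with 43.5% methylation, 39.4% in promoters and 30.2% in CpG islands. Of all 5605, 2134 lay on fragments under 140 bp, and there were 1362 lost ends. The highest share was then 1.86% on short and 3.60% on long fragments, both on chromosome 17. Without chromosome 17 the whole share was 10.9%, the neighbouring share 0% and the reverse set 81.

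Leaving out 1 mouse at a time widened the rule and gave 8011 to 19200 cytosines, 5245 to 9760 blocks, 33.2% to 39.8% methylation, whole shares of 22.3% to 30.9%, neighbouring shares of 6.54% to 28.3%, highest chromosome shares of 2.42% to 4.59% and reverse sets of 245 to 1609. Without Mixed-2 the highest chromosome was 1, with 3.75%. The methylation difference near the losses, 0.00960 points, ran from -0.0981 to 0.0240 and was negative without B6-1, without Mixed-1 and without Mixed-2. With neighbours covered 20 times or more it was -0.0179. With the replicate block it was 0.00960 (exact sign flips, p = 1). Same-numbered mice did not deviate together over 1253673 shared cytosines (r = -0.000165), but the labels do not say whether the numbers pair samples. The other-base comparison stayed at 0 in each alternative with a limit of 10% or 20%.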

Other observations

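Methylation levels at cytosines that all 4 mice shared moved at the same read position as the losses. At read base 30 the mean over 14871 shared cytosines was 25.4% and 25.7% in the Mixed mice and 23.8% in both B6 mice, a difference of 1.72 points (two-sided exact permutation test, p = 0.333, the smallest that 2 against 2 can give). At read bases 20 to 25, with 116215 shared cytosines, the means were 19.8%, 19.9%, 19.8% and 19.9%, a difference of 0.00674 points (exact permutation test, p = 1). The read positions compared were chosen after the coverage profile was seen.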
